A study of Mus musculus with 24 samples.

Results

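Genes that encode integrin and laminin subunits were followed across mouse small cell lung cancer (SCLC) cell lines before and after restoration of p53. They were taken by symbol from the table of 25239 genes: Itga or Itgb followed by the number or letter of a subunit, and Lama, Lamb or Lamc followed by a chain number. The 36 genes described are 18 integrin alpha subunits, 8 integrin beta subunits and 10 laminin chains. The rule uses symbols only. The 6 lines were each grown from an individual lung tumor of mice that carried Trp53 XTR/XTR together with Rb1 flox/flox, Rbl2 flox/flox and Rosa26 FlpO-ER, on a mixed B6J/129S4vJae background. Tumors were started with an adenovirus that expressed Cre from the CMV promoter, so Cre was not limited to a lung cell type. Every library therefore shares the loss of Rb1 and Rbl2, and every line started from the trapped Trp53 allele. In Control (ethanol vehicle) the trap keeps p53 off, and in Restored 4-hydroxytamoxifen activates FlpO-ER, which removes the trap. Cyclosporin A (CsA), which binds cyclophilins, was added or not, and RNA was taken at 72 h. The study sorted the lines by what p53 restoration does to them. Type D lines (4711-1, 4711-18 and 4716-11, replicates 1 to 3) lose viability, and Type V lines (4711-11, 4716-10 and 4716-14, replicates 1 to 3) stay viable. Each line gave 1 library for each of Control, Control + CsA, Restored and Restored + CsA, so 24 libraries formed 8 groups of 3 lines. Below, values of the 3 lines of a type are always listed in that order.

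Integrins are transmembrane receptors made of an alpha and a beta subunit, and the pairing decides what they bind. Itgb1 pairs with most alpha subunits, Itga6 with Itgb4 forms the laminin receptor of hemidesmosomes, the anchors of epithelial cells, and subunits such as Itgav and Itga5 form receptors for the RGD motif of fibronectin and vitronectin. Laminins are basement membrane proteins assembled from an alpha, a beta and a gamma chain; Lama3 and Lamb3 are chains of the laminin that hemidesmosomes bind, while Lama5 with Lamb1 or Lamb2 and Lamc1 forms laminins found in most adult epithelial basement membranes.

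Expression was measured as TPM, a transcript level that is corrected for transcript length and scaled so that each library sums to 1000000, so the number of reads behind a value is unknown. Trp53 was read first as a check on the labels, and lay at 10.7 to 14.8 TPM in the 6 Control libraries and at 181 to 253 in the 6 Restored libraries. The label of small cell lung cancer was then set against its defining markers. Chga was listed at 0 in all Control and Restored libraries, and Neurod1 and Calca reached at most 0.0993 TPM, so these 3 neuroendocrine markers were absent or close to absent from the cultures. Ncam1 was present in all 6 lines, at 8.46 to 21.1 TPM in Control. In Control, Uchl1 was at 0.383, 0.168 and 1.88 TPM in the Type D lines and 40.9, 18.9 and 22.2 TPM in the Type V lines. Insm1 was at 1.62, 0 and 3.07 TPM in the Type D lines, whereas the Type V lines had 18.1, 1.59 and 5.30 TPM. The 8 neuroendocrine markers looked at summed to 9.63 to 20.5 TPM per library in Type D Control and to 33.0 to 79.2 in Type V Control, higher in every Type V line. Krt8, an epithelial keratin, was at 5797, 3252 and 4055 TPM in Control of Type D, whereas the Type V lines had 0.973, 567 and 179 TPM, lowest in line 4711-11. Cdh1 was at 903, 641 and 676 TPM in Type D Control and 538, 246 and 130 TPM in Type V Control, highest there in line 4711-11. Epcam reached only 4.57 TPM in Type D Control and 1.64 in Type V Control. The 5 epithelial markers (these 3, Krt18 and Krt19) summed to 9522 to 16618 TPM per library in Type D Control and 756 to 2325 in Type V Control. The 7 fibroblast markers (Pdgfra, Pdgfrb, Col1a1, Col1a2, Dcn, Lum and Thy1) summed to 0.614 to 1.34 TPM per library in Type D Control and to 192 to 494 in Type V Control. The types thus differed in markers of other cell types as well as in the genes described here. Type V Control lines had Pdgfrb at 6.87, 36.7 and 143 TPM and Dcn at 62.1, 28.0 and 24.7. Col1a1 was at 103, 349 and 11.8 TPM and Col1a2 at 19.0, 80.7 and 170 in these libraries. Thy1 was at 0 in every line of Type V in Control, Lum reached at most 0.844 TPM there and Pdgfra at most 3.37. The part of these marker differences in any comparison of types was not tested. Fewer cells of a type and less RNA per cell cannot be told apart in such libraries, which hold RNA of whole cultures.

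Sequence before the transcription start was examined where members behaved in ways the results below turn on: Itga2b, which was higher after restoration in every line; the neighbouring pair Itga2 and Itga1; and Lama5, the chain that supplied nearly all laminin alpha transcript. Each sequence gives the 250 bases before the RefSeq start (GRCm38.p6), 5′ to 3′ on the strand of the gene, which is the minus strand in all 4. None of these bases lies in an annotated untranslated region. Capitals mark the GC box GGGCGG or its reverse complement CCGCCC.
Itga2b: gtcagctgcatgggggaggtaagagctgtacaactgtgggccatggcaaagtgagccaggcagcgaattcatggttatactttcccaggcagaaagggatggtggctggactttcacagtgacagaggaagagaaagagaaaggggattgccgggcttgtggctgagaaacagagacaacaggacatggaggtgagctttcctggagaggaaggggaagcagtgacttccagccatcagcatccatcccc
Itga2: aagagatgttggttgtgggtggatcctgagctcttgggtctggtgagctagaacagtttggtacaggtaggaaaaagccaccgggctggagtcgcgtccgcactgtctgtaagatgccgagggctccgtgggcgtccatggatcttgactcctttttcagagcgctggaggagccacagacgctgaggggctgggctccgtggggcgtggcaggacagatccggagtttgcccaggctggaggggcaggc
Itga1: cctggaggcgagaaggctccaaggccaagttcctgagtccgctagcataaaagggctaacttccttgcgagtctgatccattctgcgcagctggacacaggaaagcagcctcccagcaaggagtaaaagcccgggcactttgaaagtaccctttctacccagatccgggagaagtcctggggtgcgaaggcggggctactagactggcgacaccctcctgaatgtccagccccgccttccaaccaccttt
Lama5: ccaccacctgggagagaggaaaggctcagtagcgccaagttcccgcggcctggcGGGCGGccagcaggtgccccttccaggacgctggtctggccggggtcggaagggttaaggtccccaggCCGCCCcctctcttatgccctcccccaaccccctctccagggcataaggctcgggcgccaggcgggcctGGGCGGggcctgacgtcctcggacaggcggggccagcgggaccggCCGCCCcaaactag
The window of Itga2b runs over chr11:102469884-102470133, and a transcript of the gene without a coding sequence starts inside it. Those of Itga2 and Itga1 run over chr13:114932101-114932350 and chr13:115101965-115102214, and that of Lama5 over chr2:180225860-180226109. A p53 half-site was found on either strand in 7.13% of all 32807 windows and in 1 of the 26 windows of the 23 members with an entry, that of Itga9. It was in none of the 4 windows shown. TGANTCA, the core recognised by AP-1 factors, was in 6.75% of all windows and in 1 of 26 member windows. GGGCGG was in 32.7% of all windows and in 9 of the 26, and it occurred 4 times in that of Lama5. These matches describe letters in a short window, and sites elsewhere in the genes were not searched.

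Of the 36 members, 27 reached 1 TPM in at least 3 libraries and were tested. The other 9 stayed below 1 TPM in every library: the leukocyte subunits Itgal, Itgam, Itgax, Itgad and Itgae, Itga4, Itga11, and the laminin chains Lama2 and Lamc3. Itgae, the highest of them, reached 0.904 TPM. Itgb2, the beta subunit of leukocyte integrins, was tested but reached only 2.61 TPM, and the leukocyte marker Ptprc reached at most 0.127 TPM in Control and Restored. The most abundant member in each of the 24 libraries was Itgb1, at 383 to 1704 TPM.

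**Figure D1:**
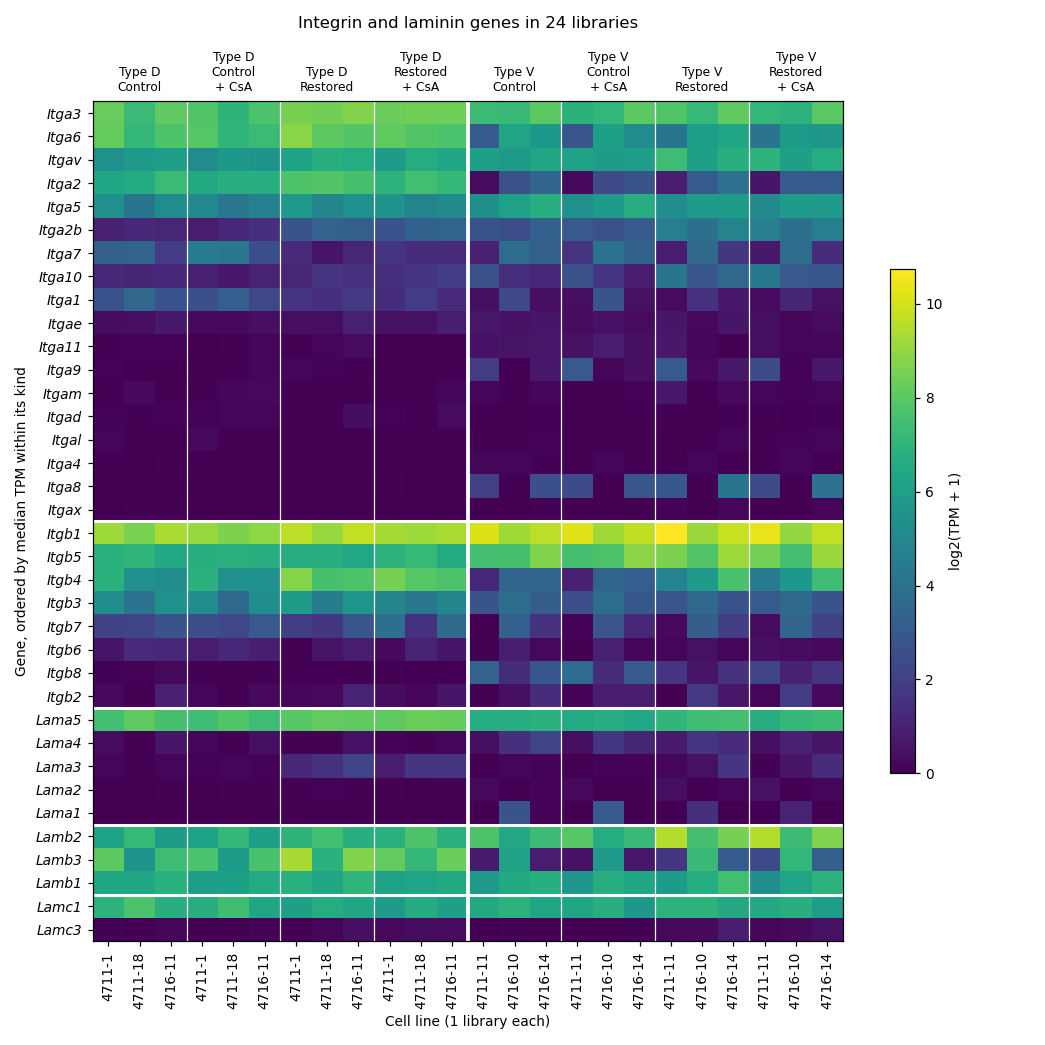
Level of each of the 36 genes (rows, grouped by kind and ordered by median) in each of the 24 libraries (columns, 1 per cell line and treatment), as log2(TPM + 1) from dark (0) to yellow. Itgb1 is brightest throughout, Itga2, Itga6 and Lamb3 are brighter on the Type D side, and Lama1 and Itga8 exceed 1 TPM in some of the Type V lines only.

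Among laminin alpha chains Lama5 took at least 92.9% of the summed TPM in Control. Among beta chains Lamb3 took 63.0, 16.9 and 49.4% in Type D and 0.273, 28.6 and 0.310% in Type V, so line 4716-10 of Type V lay above line 4711-18 of Type D. In Control Itga3 was the leading alpha subunit in all 6 lines (32.4 to 54.9% of alpha TPM). Itga6 came next in Type D (37.6, 28.7 and 28.5%) but not in all lines of Type V (2.64, 19.9 and 9.61%). Itgb4 supplied 13.7, 7.30 and 4.32% of beta TPM in Type D Control and 0.0986, 1.19 and 0.812% in Type V Control. After restoration these shares were 30.7, 22.2 and 17.6% and 1.31, 6.43 and 12.04%, higher in every line.

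The first comparison asked how the types differed before p53 was restored. Itga2, Itgb4, Itga6, Itga1 and Itgb3 were higher in Type D Control than in Type V Control, and Itgb8 and Itga2b were lower. These 7 of 27 tested members (25.9%) had a Benjamini-Hochberg adjusted p under 0.05 over all 14104 tested genes (limma, on log2(TPM + 1)) and a difference of at least 1 log2. Such calls were made for 8.83% of all tested genes, 4.42% higher and 4.41% lower. The median difference was 0.02 log2 over the tested members and -0.12 over all tested genes, with 14 members above 0 and 13 below. The 5 genes higher in Type D were 3 of 11 alpha subunits and 2 of 8 beta subunits of integrins, and 1 of each kind was lower. All log2 differences below are on the log2(TPM + 1) scale, which understates changes of genes with low TPM.

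**Figure D2:**
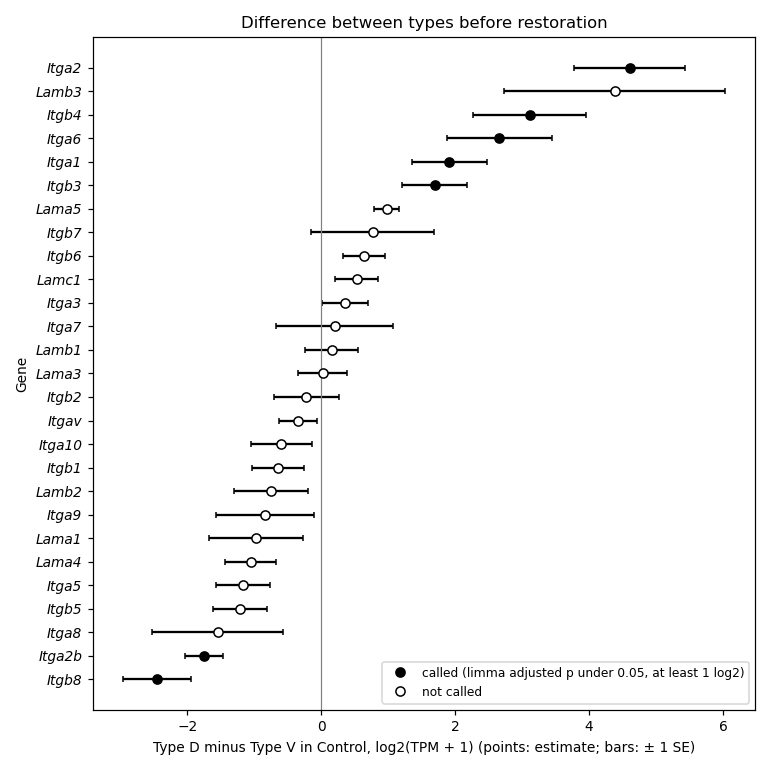
Difference of each of the 27 tested genes between Type D and Type V in Control (horizontal axis, log2(TPM + 1); points are the limma estimate, bars ± 1 SE; 3 lines a type), ordered by size. Filled points are called, 5 to the right of 0 and 2 to the left; Lamb3 has the second largest estimate (4.38) but the widest bar and is not called.

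Itga2 encodes the alpha subunit of a collagen receptor and showed the largest difference of the 7. Itga2 was at 81.8, 95.3 and 158 TPM in Type D Control, 90.6, 104 and 104 in Control + CsA, 219, 225 and 195 in Restored and 123, 178 and 143 in Restored + CsA. Type V values were 0.247, 5.29 and 10.2, then 0.191, 4.68 and 5.92, then 0.784, 7.13 and 15.3, and then 0.553, 7.24 and 7.21 TPM, in the same order of treatments. All 12 Type D libraries lay above all 12 Type V libraries, and line 4711-11 was lowest within Type V under every treatment. The Control difference was 4.60 ± 0.83 log2 (SE; adjusted p 0.000937), and it was 4.80, 5.11 and 4.96 in Control + CsA, Restored and Restored + CsA, all called. Its neighbour Itga1, the alpha subunit of another collagen receptor, lies 21.0 kb away on chromosome 13 with no coding gene between. Itga2 covers chr13:114833081-114932100 and Itga1 chr13:114953096-115101964 (GENCODE M21, GRCm38). Both are on the minus strand, so this gap lies between the start of Itga2 and the end of Itga1. Itga1 was at 5.44, 10.6 and 5.57 TPM in Type D Control, 5.14, 8.14 and 4.09 in Control + CsA, 2.12, 1.77 and 2.58 in Restored and 1.63, 2.71 and 1.46 in Restored + CsA. The Type V lines had 0.347, 4.02 and 0.361, then 0.303, 5.89 and 0.382, then 0.233, 1.88 and 0.661, and then 0.242, 1.15 and 0.405 TPM, in the same order of treatments. Itga1 was thus far below Itga2 in every Type D library, and line 4716-10 stood above the other lines of Type V. It was higher in Type D Control by 1.91 ± 0.56 log2 (adjusted p 0.0302) and was not called under the other treatments (1.51, 0.80 and 0.89 log2; adjusted p 0.0796, 0.37 and 0.331).

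The laminin receptor subunits Itga6 and Itgb4 were both higher in Type D Control. Itga6 was at 292, 140.3 and 217 TPM in Type D Control, 237, 134 and 157 in Control + CsA, 454, 262 and 233 in Restored and 274, 226 and 205 in Restored + CsA. For Type V the values were 7.83, 75.8 and 51.9, then 6.35, 65.6 and 34.9, then 16.8, 61.9 and 81.9, and then 16.5, 56.6 and 49.8 TPM, in the same order of treatments. As for Itga2, the 12 Type D libraries were all above the 12 Type V libraries, with line 4711-11 lowest. The difference was 2.66 ± 0.78 log2 in Control (adjusted p 0.0302) and 2.72, 2.75 and 2.66 under the other treatments, all called. Itgb4 was at 116, 41.9 and 35.4 TPM in Type D Control, 114, 42.1 and 42.0 in Control + CsA, 430.0, 193 and 215 in Restored and 365, 240.2 and 213 in Restored + CsA. Levels in Type V were 1.33, 9.85 and 10.2, then 0.999, 10.0 and 8.25, then 27.8, 54.9 and 203, and then 21.1, 51.9 and 168 TPM, in the same order of treatments. In Control the lowest Type D line was above the highest Type V line, but in Restored line 4716-14 of Type V lay above line 4711-18 of Type D. Itgb4 differed by 3.11 ± 0.84 log2 in Control (adjusted p 0.0183) and by 3.34 in Control + CsA (0.011). In Restored the difference was 1.93 (adjusted p 0.131) and in Restored + CsA 2.19 (0.0975), not called; with the cell line as a random block the latter had an adjusted p of 0.0395 and was called. A non-coding gene on the other strand, B230344G16Rik, shares exon sequence with Itgb4, at no more than 3.99 TPM. The other laminin receptor subunits, Itga3 and Itga7, differed by 0.35 and 0.20 log2 in Control (adjusted p 0.55 and 0.916).

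Lamb3, the beta chain of the hemidesmosome laminin, had a large and uneven difference. Lamb3 was at 261, 45.9 and 168 TPM in Type D Control, 209, 57.0 and 199 in Control + CsA, 651, 113 and 417 in Restored and 284, 140.3 and 313 in Restored + CsA. Type V values were 0.729, 71.8 and 0.838, then 0.436, 55.6 and 0.596, then 2.21, 154 and 7.77, and then 4.53, 138 and 8.41 TPM, in the same order of treatments. Line 4716-10 accounted for nearly all Lamb3 of Type V, and its Control value lay above that of line 4711-18 of Type D. The difference in Control was 4.38 ± 1.65 log2 (adjusted p 0.0879, not called). With the cell line as a random block Lamb3 was called in all 4 treatments (adjusted p 0.00553 in Control). Lama3, its alpha chain partner, was below 1 TPM in every Control library of both types.

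Itgb3 and the subunits that were lower in Type D belong to receptors for RGD-containing ligands. Of the 8 subunits of this class, 1 was higher in Type D Control and 2 were lower. Itgb3 was at 38.3, 16.0 and 40.5 TPM in Type D Control, 36.8, 11.7 and 37.7 in Control + CsA, 56.6, 21.4 and 47.1 in Restored and 28.5, 18.8 and 29.5 in Restored + CsA. The Type V lines had 5.71, 12.8 and 7.88, then 4.97, 12.8 and 6.74, then 6.13, 11.1 and 5.61, and then 7.11, 12.1 and 5.90 TPM, in the same order of treatments. Itgb3, which pairs with Itgav and Itga2b, was higher by 1.69 ± 0.48 log2 in Control (adjusted p 0.0254) with no overlap of lines, and was called under all 4 treatments. In Control + CsA line 4716-10 (12.8) lay above line 4711-18 (11.7). Itga2b was at 0.960, 1.35 and 1.26 TPM in Type D Control, 0.817, 1.34 and 1.73 in Control + CsA, 5.93, 9.40 and 8.57 in Restored and 5.45, 9.14 and 9.97 in Restored + CsA. For Type V the values were 5.83, 4.90 and 8.82, then 7.06, 5.40 and 7.57, then 23.2, 14.7 and 26.7, and then 24.6, 14.7 and 23.5 TPM, in the same order of treatments. Itga2b, known as the platelet fibrinogen receptor subunit, was lower in Type D (-1.75 log2, SE 0.29; adjusted p 0.000379), and the lines of the types did not overlap within any treatment. Of the platelet markers, Gp9 was listed at 0 in Control of both types. Pf4 was at 0.186, 2.29 and 2.44 TPM in Type D Control and reached 0.607 in Type V Control. Ppbp reached 12.9 TPM in Type D Control and 14.1 in Type V Control. In Restored, Gp9 and Pf4 were listed at 0 in all lines except for Gp9 at 0.272 and 0.187 TPM in lines 4716-10 and 4716-14. Ppbp reached 9.48 TPM in Restored, and Gp1ba was at 2.12 to 11.99.

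Itgb8, a subunit that pairs with Itgav, was nearly absent from Type D. Itgb8 was at 0.0354, 0.0621 and 0.174 TPM in Type D Control, 0.0564, 0 and 0.0490 in Control + CsA, 0, 0 and 0 in Restored and 0.0437, 0 and 0 in Restored + CsA. Levels in Type V were 9.49, 1.61 and 6.75, then 12.6, 1.60 and 7.01, then 2.07, 0.463 and 1.92, and then 3.41, 0.953 and 2.06 TPM, in the same order of treatments. All Type D libraries were below all Type V libraries, and the Control difference was -2.45 ± 0.51 log2 (adjusted p 0.00298). It was -2.67 in Control + CsA (called), and -1.24 and -1.55 after restoration without and with CsA (adjusted p 0.11 and 0.0529, not called; 0.0599 and 0.0218 with the block). Itgb5 was at 115, 127 and 82.3 TPM in Type D Control, 106, 112 and 108 in Control + CsA, 102, 109.9 and 84.3 in Restored and 123, 144 and 97.5 in Restored + CsA. Type V values were 185, 197 and 416, then 189.6, 214 and 464, then 389, 226 and 572, and then 359, 185 and 562 TPM, in the same order of treatments. Itgb5, another partner of Itgav, was also lower in every Type D library than in every Type V library, and line 4716-14 was highest under every treatment. It missed the threshold in Control (-1.21 log2, adjusted p 0.0549; 0.027 with the block) and was called in Control + CsA, Restored and Restored + CsA (-1.29, -1.90 and -1.47 log2). Over all tested genes, 3.02% had all 12 Type D libraries above all 12 of Type V (2 of 27 members: Itga2 and Itga6) and 4.33% had them all below (2 members: Itgb5 and Itgb8).

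The remaining members called between types were Itga5, Itga10 and Lama5. Itga5 was at 40.7, 16.8 and 36.8 TPM in Type D Control, 31.3, 17.4 and 25.6 in Control + CsA, 54.7, 29.2 and 41.5 in Restored and 43.0, 27.4 and 34.1 in Restored + CsA. The Type V lines had 39.7, 70.3 and 109, then 40.4, 59.1 and 103, then 37.1, 59.3 and 57.0, and then 33.6, 57.8 and 53.3 TPM, in the same order of treatments. Itga5, the alpha subunit of the fibronectin receptor, was lower in Type D in Control + CsA (-1.34 log2, adjusted p 0.0299), and in Control it stood at -1.17 (adjusted p 0.0617; 0.03 with the block), where line 4711-1 was above line 4711-11. Itga10 was at 1.33, 1.15 and 1.32 TPM in Type D Control, 0.937, 0.626 and 1.12 in Control + CsA, 1.26, 2.03 and 1.87 in Restored and 1.77, 2.03 and 2.85 in Restored + CsA. For Type V the values were 5.30, 1.77 and 1.29, then 5.34, 2.13 and 0.795, then 17.3, 6.22 and 10.9, and then 19.1, 6.91 and 6.61 TPM, in the same order of treatments. Itga10, a collagen receptor subunit, did not separate the types in Control (-0.60 log2, adjusted p 0.431) and was lower in Type D in Restored (-2.11, adjusted p 0.00442) and in Restored + CsA (-1.74, 0.0176). Lama5 was at 177, 269 and 194 TPM in Type D Control, 167, 223 and 167 in Control + CsA, 244, 286 and 278 in Restored and 267, 318 and 289.8 in Restored + CsA. Levels in Type V were 98.1, 103 and 118, then 92.7, 101 and 85.3, then 134, 173 and 186, and then 103, 143 and 164 TPM, in the same order of treatments. Lama5 was higher in all Type D lines than in all Type V lines within every treatment. Its difference had an adjusted p of 0.00133 in Control but a size of 0.98 log2, just under the 1 log2 asked for, and it was called in Restored + CsA (1.11 ± 0.18 log2). Lama5 is among the genes the study chose on these samples as its Type D signature, so its direction here is not independent evidence.

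Counts of members called were similar across treatments: 4 higher and 4 lower in Control + CsA (9.88% of all tested genes called, 4.81% higher and 5.07% lower), 3 and 3 in Restored (9.44%, 4.45% and 4.99%), and 4 and 3 in Restored + CsA (7.82%, 3.76% and 4.06%). Itga2, Itga6, Itgb3 and Itga2b were called in all 4. With the block 12 members were called in Restored + CsA, 6 higher and 6 lower, where that rule called 9.85% of all tested genes. It called 11.3%, 12.1% and 11.3% of all tested genes in Control, Control + CsA and Restored, with 10, 9 and 9 members. Without line 4716-10, the Type V line that stood apart for Lamb3 and Itga1, 11 members were called in Restored and 12 in Restored + CsA, and without line 4711-1 2 in Restored + CsA. The shares of all tested genes called with a line left out, or in a fit to fewer groups, are not given here. Such counts therefore do not show a change particular to the members. In Control the calls of Itga2, Itga2b and Itgb8 held with each of the 6 lines left out in turn. Itgb4 lost its call without line 4711-1 (2.59 log2, adjusted p 0.127) or line 4716-11 (3.43, 0.0561). Itgb3 lost it without 4711-1, 4716-11, 4711-11 or 4716-14 (1.45 to 1.65 log2, adjusted p 0.101 to 0.148), and Itga6 without any Type D line or without 4716-14 (2.41 to 3.0, adjusted p 0.056 to 0.163). Itga1 was called only when line 4716-10 was the one left out (otherwise 1.59 to 2.06 log2, adjusted p 0.095 to 0.15). In a fit to the 6 Control libraries alone, 2 members were called: Itga2 and Itga2b.

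Under the other treatments Itga2 kept its calls without each of the 6 lines, and so did Itgb8 in Control + CsA. Itga6 lost its call without any Type D line in Control + CsA, Restored and Restored + CsA, and also without 4716-14 when CsA was present (2.45 to 2.96 log2, adjusted p 0.0538 to 0.146). Itgb3 held in Restored and lost its call in Control + CsA and Restored + CsA without 4711-1, 4716-11, 4711-11 or 4716-14 (1.34 to 1.54 log2, adjusted p 0.111 to 0.197). Itgb5 held in Restored. It lost its call in Control + CsA without any Type D line or 4716-14 (-1.31 to -0.89 log2, adjusted p 0.0571 to 0.153), and in Restored + CsA without any Type D line or 4711-11 (-1.60 to -1.32, adjusted p 0.0539 to 0.135). Itga5 was no longer called in Control + CsA without any 1 of 5 lines, all but 4711-11 (-1.53 to -0.99 log2, adjusted p 0.052 to 0.144). Itga10 was not called without 4711-1 in Restored (-1.98 log2, adjusted p 0.0508) and without any Type D line in Restored + CsA (-1.88 to -1.64, adjusted p 0.0691 to 0.115). Single lines also ended the calls of Itgb4 in Control + CsA (2.87 log2 without 4711-1, adjusted p 0.0793), Itga2b in Restored + CsA (-1.02 without 4711-1, adjusted p 0.0564) and Lama5 in Restored + CsA (0.92 without 4711-11, under the 1 log2 asked for, with an adjusted p of 0.00375).

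The other tested members were called in no comparison between types. Itgav and Itgb1, the widely shared subunits, differed by -0.35 and -0.65 log2 in Control (95% intervals -0.95 to 0.25 and -1.46 to 0.16). Lamc1, the gamma chain of most laminins, differed by 0.53 (95% interval -0.14 to 1.20). Lamb1 and Lamb2, the beta chains of most laminins, differed by 0.15 and -0.75 (adjusted p 0.844 and 0.403), and Lamb2 by -1.45 in Restored (adjusted p 0.0816; 0.0145 with the block). Itga8, a fibronectin and nephronectin receptor subunit, was listed at 0 in the 9 Type D libraries outside Restored + CsA and in all 4 libraries of line 4716-10, and was at 3.06 and 5.14 TPM in the Control libraries of lines 4711-11 and 4716-14. Lama1 was seen above 1 TPM in line 4716-10 alone, at 6.01 TPM in Control and 7.01, 1.76 and 1.12 TPM under the other treatments. Itga9 was highest in line 4711-11 (2.75 to 7.28 TPM) and at most 0.141 TPM in Type D. Itgb6, Itgb7, Itgb2 and Lama4 were low throughout, with highest values of 1.41, 14.2, 2.61 and 3.55 TPM.

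The next comparison asked what changed when p53 was restored. In Type D, Itga2b and Lama3 rose, and in Type V, Itgb4, Itga2b and Itga10 rose. These were 2 and 3 of 27 members (7.41% and 11.1%), and all of them rose. Of all tested genes 6.93% and 5.29% were called in the same comparisons (4.49% and 3.39% higher). In this fit, which did not pair the libraries of a line, no member fell by the criteria in either type. Of all tested genes 2.44% and 1.9% fell in it. With the cell line as a block, described below, Itga7 and Itga1 were called lower in Type D and Itgb8 in Type V. At an unadjusted p under 0.05 there were 7 members in each type. The tested members had a median change of 0.25 log2 in Type D, while that in Type V was 0.33, against 0.07 and 0.05 over all tested genes.

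**Figure D3:**
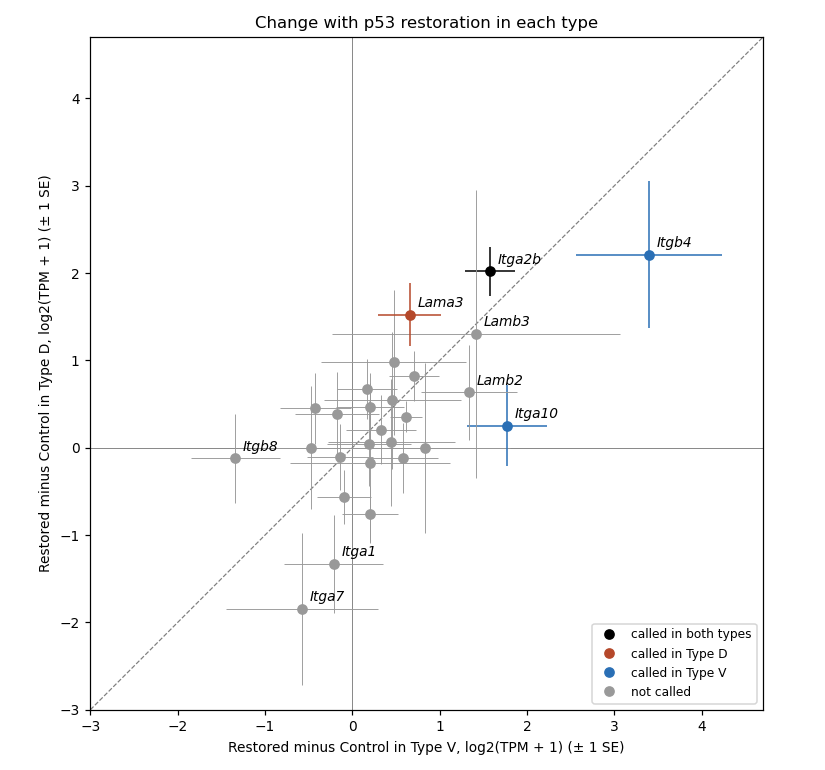
Change of each of the 27 tested genes from Control to Restored in Type V (horizontal axis) and Type D (vertical axis), log2(TPM + 1), with bars of ± 1 SE and 3 lines a type; the dashed diagonal marks equal change. Itga2b (black) lies at 1.58 and 2.02 and was called in both types, Lama3 (red) in Type D, and Itgb4 and Itga10 (blue) in Type V; genes in grey were not called.

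Itga2b was higher after restoration in all 6 lines. Its Restored values, given above, were all above the Control values of the same type, and the change was 2.02 ± 0.29 log2 in Type D (adjusted p 6.75e-05) and 1.58 ± 0.29 in Type V (0.00112). The calls held without each of the 6 lines, and the call in Type V was lost in a fit to its Control and Restored libraries alone (adjusted p 0.0881). With CsA present the change was 1.98 and 1.49, also called in both. Itga2b belongs to Module 6 and Lama3 to Module 1 of the gene groups that the study formed on these Control and Restored libraries, so their rise is not independent evidence. The 4 platelet markers (Pf4, Ppbp, Gp9 and Gp1ba) summed to 3.45 to 17.4 TPM per library in Type D Control and 2.12 to 7.72 in Type D Restored, and to 2.77 to 15.9 and 9.91 to 12.5 in Type V. Gp1ba was at 1.97, 0.986 and 2.03 TPM in Type D Control and 3.34, 2.12 and 4.83 in Restored. In Type V it went from 3.51, 1.14 and 2.77 TPM to 11.99, 2.71 and 9.72 TPM, so Restored was above Control in all 6 lines.

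Markers of other cell types moved with restoration too. The 7 leukocyte markers summed to 9.04 to 11.2 TPM per library in Type D Control and 31.9 to 56.3 in Restored, and to 7.97 to 10.8 and 16.3 to 32.1 in Type V, almost all of it Cd68, while Ptprc and Cd3e were at or near 0. The fibroblast markers summed to 88.7 to 193 TPM in Type V Restored, against 192 to 494 in Type V Control. These ranges overlap but ignore the pairing by line. Within lines, Col1a1, Col1a2 and Pdgfrb were lower after restoration in every Type V line. Col1a1 went from 103, 349 and 11.8 to 94.7, 136 and 0.698 TPM. Col1a2 went from 19.0, 80.7 and 170 to 6.36, 11.6 and 6.89 TPM, and Pdgfrb from 6.87, 36.7 and 143 to 2.60, 9.13 and 61.3. Dcn did not fall in every line, going from 62.1, 28.0 and 24.7 to 71.9, 36.3 and 19.5 TPM. The epithelial markers summed to 6639.8 to 12106 in Type D Restored against 9522 to 16618 in Control. The 4 endothelial markers stayed below 1 TPM in sum in every library. The part of these markers in the changes with restoration was not tested.

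Lama3 rose from near 0. Lama3 was at 0.103, 0.0363 and 0.152 TPM in Type D Control, 0.0824, 0.108 and 0.0716 in Control + CsA, 1.32, 1.98 and 3.53 in Restored and 0.791, 2.22 and 2.05 in Restored + CsA. Type V values were 0.0151, 0.151 and 0.0783, then 0.0214, 0.0810 and 0.0898, then 0.105, 0.383 and 2.22, and then 0.0390, 0.495 and 1.54 TPM, in the same order of treatments. Restored was above Control in all 6 lines, and the Type V line with the highest Restored value, 4716-14, passed the lower Type D lines. The change was 1.52 ± 0.36 log2 in Type D (adjusted p 0.00823) and 0.66 in Type V (adjusted p 0.315), and 1.26 (0.0347) and 0.57 (0.441) with CsA present. The call in Type D was lost without line 4711-18 (1.52 log2, adjusted p 0.0907) or line 4716-11 (1.30, 0.135), and with CsA present it was lost without any Type D line or without line 4716-10 (adjusted p 0.0524 to 0.288). Even after restoration Lama3 stayed well under its partner Lamb3 in the Type D lines, at 1.32 to 3.53 TPM against 113 to 651.

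Itgb4 showed the largest rise in Type V, 3.39 ± 0.84 log2 (adjusted p 0.0125), and rose in 3 of 3 lines. In Type D its change was 2.21 log2 in 3 of 3 lines (adjusted p 0.0956), not called without the cell line block and called with it (4.04e-05). The types' changes differed by -1.18 log2 (95% interval -3.67 to 1.30; adjusted p 1), so a call in Type V and none in Type D does not show that they differ. Itga10 rose in Type V by 1.77 ± 0.46 log2 (adjusted p 0.017), while its change in Type D was 0.25 (adjusted p 0.825). With CsA present the Type V call of Itgb4 was lost without 4716-10 or 4716-14 (3.83 and 2.86 log2, adjusted p 0.0549 and 0.0816), and that of Itga10 without any line but 4711-11 (1.5 to 1.87, adjusted p 0.0559 to 0.131). Without CsA both calls were lost without line 4716-14 (Itgb4 3.0 log2, adjusted p 0.0547; Itga10 1.46, adjusted p 0.115), which left 1 member called, and a fit to the Type V Control and Restored libraries alone called 0. The shares of all tested genes called in these fits are not given here.

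With the cell line as a block, which compares each Restored library with the Control library of the same line, 6 members were called in each type, where the same rule called 11.2% (Type D) and 8.66% (Type V) of all tested genes. In Type D these were Itga2b, Itgb4, Lama3 and Lamb3, higher, and Itga7 and Itga1, lower. In Type V they were Itgb4, Itga2b, Itga10, Lamb3 and Lamb2, higher, and Itgb8, lower. Lamb3 changed by 1.30 log2 in Type D, with 1.41 in Type V (adjusted p with the block 0.00169 and 0.00103; without it 0.716 and 0.719). Lamb2 went from 212, 87.5 and 165 TPM in Type V Control to 730.4, 186 and 367 in Restored (1.34 log2; 5.66e-06 with the block, 0.144 without), above Control in each line. Itga1 went in Type D from 5.44 to 10.6 TPM in Control to 1.77 to 2.58 in Restored (-1.33 log2; 0.00168 with the block, 0.141 without), so Itga1 was lower and its neighbour Itga2 higher in every Type D line after restoration.

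Itga7, the laminin receptor subunit known from muscle, is less certain than the others. Itga7 was at 8.72, 9.88 and 2.72 TPM in Type D Control, 19.8, 18.0 and 5.05 in Control + CsA, 1.45, 0.540 and 1.24 in Restored and 2.09, 1.61 and 1.46 in Restored + CsA. The Type V lines had 0.963, 12.9 and 8.49, then 2.16, 14.9 and 9.19, then 0.773, 11.9 and 2.39, and then 0.649, 13.02 and 1.54 TPM, in the same order of treatments. Restored values were below Control in all 6 lines. The change was -1.85 log2 in Type D (adjusted p 0.00142 with the block, 0.191 without), and -0.58 in Type V. Itga7 shares exon sequence with Mettl7b, which lies on the other strand and was at 13.2 to 36.9 TPM in Type D Control and 2.16 to 6.89 in Type D Restored. Whether counting took strand into account is not given in the sources used here, so reads of the pair cannot be told apart and the values of Itga7 are uncertain.

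In all, 8 members were higher after restoration in every line without CsA, and the same genes in every line with CsA: Itga2, Itga2b, Itgav, Itgb4, Lama3, Lama5, Lamb2 and Lamb3. That is 29.6% of 27 members, where 23.8% of all tested genes were higher in all 6 lines without CsA and 18.1% both with and without it. Itga7 and Itgb8 were lower in all 6 lines without CsA (7.41% of members against 16.1% of all tested genes). With CsA present, restoration gave the same calls as without it: Itga2b and Lama3 in Type D (5.41% of all tested genes called, 3.53% higher), and Itgb4 (3.30 log2), Itga2b and Itga10 (1.69) in Type V (4.61%, 2.84% higher). These comparisons share no library with those without CsA, though they use the same lines. With the block 5 members were called in Type D and 6 in Type V under CsA (9.69% and 7.97% of all tested genes).

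**Figure D4:**
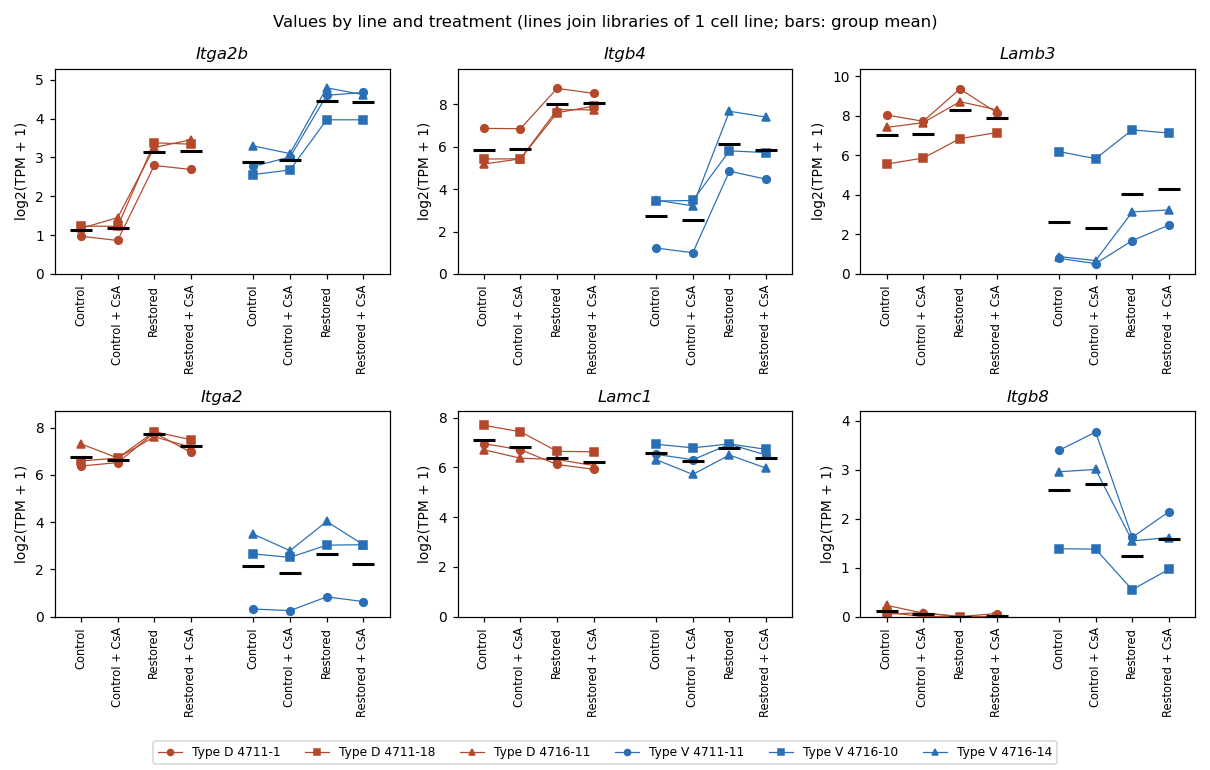
Level of 6 genes in every library as log2(TPM + 1) (vertical axis from 0) over the 4 treatments, Type D in red on the left of each panel and Type V in blue on the right; thin lines join the libraries of 1 cell line and bars are group means. Itga2b and Itgb4 step up between the treatments without and with restored p53 in every line, Itga2 stays apart between the types, Lamc1 steps down in Type D, and 1 Type V line (4716-10) carries most of the Type V Lamb3.

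A direct test asked whether restoration acted differently in the types. No member's response differed by the criteria (0.0284% of all tested genes did, 0.0213% with the higher response in Type D and 0.00709% with the lower). An unadjusted p under 0.05 (limma) was found for 2 of 27 members and for 540 of all 14104 tested genes. With the cell line block 2 members were called (2.44% of all tested genes), Itga10 with the larger rise in Type V (difference -1.51 log2, Type D minus Type V; adjusted p with the block 0.0107, without it 1) and Itgb8 (1.22; 0.0235 and 1), whose Type D values were all at or below 0.174 TPM. Lamc1 went from 123, 206 and 104 TPM to 68.3, 99.1 and 78.7 in Type D and from 91.0, 121 and 78.3 to 121, 122 and 89.2 in Type V. It was lower in 3 of 3 Type D lines and higher in 3 of 3 Type V lines, a difference of -0.96 ± 0.45 log2 (adjusted p 1; 0.00909 with the block, under the 1 log2 asked for). Itga5 showed the opposite arrangement, higher in 3 of 3 Type D lines and lower in 3 of 3 Type V lines (0.87 log2; adjusted p 1, 0.0453 with the block). Such opposite directions in all lines were found for 2 of 27 members and 2.77% of all tested genes. In the presence of CsA 0 members differed (0.0142% of all tested genes called, 0.00709% in each direction). There 0 members had an unadjusted p under 0.05 (limma), against 430 of all 14104 tested genes. With the block and CsA, Itgb8 was called (1.11 log2, adjusted p 0.0365), where that rule called 2.32% of all tested genes.

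CsA on its own called no member in either type, and CsA added to restored p53 called none either. CsA alone called 0% of all tested genes in both types, and CsA added to restoration 0.0142% in Type D and 0% in Type V. By limma at an unadjusted p under 0.05 there were 0 members in each of these 4 comparisons. Of all 14104 tested genes, 114 (Type D) and 54 (Type V) were under it with CsA alone, and 229 and 100 with CsA added to restoration. With the block 0 members were called, where it called 0.0142% and 0% of all tested genes with CsA alone in Type D and Type V and 0.128% and 0% with CsA added to restoration. The largest estimates with CsA alone were 0.87 ± 0.87 log2 for Itga7 in Type D and -0.34 ± 0.78 for Itga6 in Type V. With CsA added to restoration they were 0.86 ± 0.92 for Itgb7 in Type D and -0.56 ± 0.38 for Lama4 in Type V. The 95% interval for Lama4 (-1.35 to 0.23 log2) does not exclude a change of more than 1 log2.

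The direction within lines was nevertheless shared by several members. With CsA added to restoration, Itga3, Itga5, Itga6, Itga9, Itgav, Lamb1 and Lamc1 were lower in all 6 lines (25.9% of members against 4.91% of all tested genes). No member was higher in all 6, where 3.8% of all tested genes were. Itga9 was at most 0.141 TPM in Type D Restored, so its direction in Type D rests on values near 0. Itga3 went from 373, 352 and 413 to 311, 341 and 329 TPM in Type D and from 223, 146 and 279 to 135, 122 and 251 in Type V. Lamb1 went from 112, 77.6 and 129.7 to 71.0, 76.1 and 90.4 TPM in Type D and from 58.5, 99.4 and 181 to 40.0, 76.6 and 123 in Type V. With CsA alone, Itga3, Itga6, Lama5 and Lamc1 were lower in all 6 lines (14.8% of members against 8.46% of all tested genes) and Itga7 was higher in all 6 (3.7% against 5.44%). These counts of direction carry no test of size, and each of the changes had an adjusted p of 1.

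Genes whose proteins work with integrins and laminins were taken from a list of 42 (adaptors and activators on the cytoplasmic side, hemidesmosome and tetraspanin partners, and basement membrane partners), of which 41 were tested. In Control 5 were higher in Type D and 1 was lower (14.6% of 41), where 8.83% of all tested genes were called, 4.42% higher and 4.41% lower. With the block 7 were higher and 0 lower (against 11.3% of all tested genes called). Fermt1, which encodes kindlin-1, an activator of integrins in epithelial cells, was at 108, 109.8 and 115 TPM in Type D and 0, 1.22 and 0.315 in Type V (6.29 ± 0.38 log2, adjusted p 1.59e-09). Bcam, a receptor for Lama5, was at 218, 567 and 335 TPM and 1.40, 101 and 25.3 TPM (4.22 log2, adjusted p 0.0255), and Tns1, an adaptor of the beta subunit tail, at 37.6, 48.7 and 32.1 and 3.57, 4.32 and 7.67 (2.74 log2, 7.72e-06). Fras1, a basement membrane protein, was lower in Type D (-1.01 log2, adjusted p 0.0169) and was not called with the block (adjusted p 0.0712) or when any Type D line was left out (0.0659 to 0.104). Fermt1 and Tns1 are also in the Type D signature that the study chose on these samples. Without line 4711-1 or line 4716-11, 2 of the 41 were called, and the call of Bcam was lost without any Type D line or line 4716-14 (adjusted p 0.079 to 0.115). The share of all tested genes called without those lines is not given here.

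With restoration 1 partner gene rose in Type D and 2 rose in Type V, and none fell. These are 2.44% and 4.88% of the 41, where 6.93% and 5.29% of all tested genes were called, 4.49% and 3.39% higher. Col17a1, a hemidesmosome collagen, was at 0.0398, 0 and 0.325 TPM in Type D Control and 1.93, 0.436 and 2.07 in Restored (1.08 log2, adjusted p 0.0261). Ntn4, a laminin-binding netrin, rose in Type V from 3.64, 13.1 and 12.7 to 13.3, 37.9 and 38.7 TPM (1.54 log2, adjusted p 0.0342), and Sdc1, a syndecan coreceptor, from 159, 357 and 191 to 467, 567 and 392 (1.08 log2, adjusted p 0.0134), each in 3 of 3 lines. The block gave 5 and 7 partner genes, all higher, where it called 11.2% and 8.66% of all tested genes. The call of Col17a1 was lost without line 4711-1 or 4716-11 (adjusted p 0.287 and 0.154), that of Sdc1 without 4711-11 or 4716-14 (0.12 and 0.0707), and that of Ntn4 without 4711-1, 4716-11, 4716-10 or 4716-14 (0.0701 to 0.134).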

How the data were processed

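RNA of whole cultures (TruSeq Stranded mRNA, single-end reads) was measured in 24 libraries, 8 groups of 3 cell lines. The authors deposited TPM per gene and library; kallisto and HISAT2 are named in the methods, HISAT2, mm10 and GRCm39 in the submitters' processing notes, and which of them made this table is not given in the sources used here. TPM keep no depth, so no counting interval was computed. A gene was tested where 3 or more libraries reached 1 TPM (14104 of 25239 genes). On log2(TPM + 1), limma 3.58.1 in R 4.3.3 fitted 1 coefficient per group over all 24 libraries with a trended prior, and 14 two-sided comparisons were read from it. A gene was called at a Benjamini-Hochberg adjusted p under 0.05 over all tested genes and a change of at least 1 log2, thresholds the study also used. Libraries of 1 cell line form pairs across treatments: their deviations from the group means correlated at 0.599 to 0.929 in 36 pairs, against -0.727 to 0.0438 in 96 pairs of other lines. A fit with cell line as a block was therefore the alternative (a fixed term within a type, a random term with correlation 0.736 between types). Each line gave 1 library per treatment. In the main fit, p-values rest on the spread between lines within a group, pooled over the 8 groups. That fit treats the 24 libraries as independent although they come from 6 lines. With the fixed line term, p-values rest on the spread left within lines. Libraries of 1 group correlated at 0.95 to 0.99 and 0 were identical. Further alternatives changed the pseudocount to 0.1, dropped the filter, raised it to 5 TPM, or used quantile normalization, median-ratio scaling (factors 0.887 to 1.11), only the compared groups, or all lines but 1. Values in every library were printed for members called in at least 1 comparison, and partner genes were named as the 3 largest rises and falls with all lines separate. Of 37 symbols that matched, 1 is not reported here and enters no count of members. The members and lists were chosen with earlier results of these data known. Scripts were tested on simulated data. Positions are from GENCODE M21 (GRCm38), promoters from RefSeq (GRCm38.p6); figures used matplotlib 3.10.9 in Python 3.11.15.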

Additional observations from a re-analysis of the deposited data

Results flagged for a closer look

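Responses to restoration that moved in opposite directions in the types, or differed with the cell line as a block, were singled out. With the block, the response (Type D minus Type V) differed for Itga10 by -1.51 log2 (adjusted p 0.0107), for Itgb8 by 1.22 (0.0235), for Itga5 by 0.87 (0.0453) and for Lamc1 by -0.96 (0.00909); under CsA it differed for Itgb8 by 1.11 (0.0365). Without the block the adjusted p was 1 for each (limma). Itga5 and Lamc1 moved in opposite directions in the types in 3 of 3 lines each. Their changes were 0.45 and -0.76 log2 in Type D, and -0.42 and 0.20 in Type V.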

How the results depend on the processing

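No result changed direction between called states under any alternative. In counts of members called between types, the compared groups alone gave 2 in Control, 2 in Control + CsA and 3 in Restored + CsA, and the cell line block (replicate block) gave 12 in Restored + CsA. Leaving out 1 line gave 4 to 10 in Control, 4 to 12 in Control + CsA, 4 to 11 in Restored and 2 to 12 in Restored + CsA. For restoration, the block gave 6 members in each type without CsA, and 5 in Type D and 6 in Type V with CsA. The compared groups alone gave 0 in Type V without and with CsA, and a TPM of at least 5 gave 1 in Type D without and with CsA, where Lama3 was no longer tested. Leaving out 1 line gave 1 to 3 in Type D and 1 to 4 in Type V, and with CsA 1 to 4 and 1 to 3. For the difference in response, the block gave 2 members, and 1 under CsA. In the 4 CsA comparisons 0 members were called under every alternative. Partner genes called between types in Control numbered 2 with the compared groups alone and 2 to 7 with 1 line left out. With restoration they numbered, in Type D, 0 at a TPM of at least 5, 2 with the compared groups alone, 5 with the block and 0 to 3 with 1 line left out. In Type V they numbered 1 with quantile normalization, 1 with median-ratio scaling, 0 with the compared groups alone, 7 with the block and 0 to 2 with 1 line left out. Apart from fewer samples or genes in those settings, the cause was not tested. Outside the main fit and the block, the shares of all tested genes called are not given here. Counts under those settings therefore do not show a change particular to the members or partner genes. Of 45 single-gene calls, 28 were lost with the compared groups alone, 22 and 20 without the Type D lines 4711-1 and 4716-11, and at most 5 under any other scaling, filter, pseudocount or the block. The block ended 1 call, that of Fras1. Lama3, Fras1 and Col17a1 were not tested at a TPM of at least 5, nor Fras1 without line 4711-11 or 4716-10.

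The number of lines (3 a type) and TPM without depth limit what can be resolved. Differences between the types cannot be told apart from differences between these lines, and genes near 0 TPM carry fold changes set by the pseudocount.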
